A study of Mus musculus with 4 samples.

Results

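The 49 cell cycle and DNA replication genes described here were taken by symbol out of 24346 gene symbols measured in liver, and were divided into 18 G1/S genes and 31 mitotic genes. Most genes of both groups were higher with dietary 7-ketocholesterol (7KC) under a chow diet (CD) and under a western-type diet (WD), but the groups were ordered differently over the 4 libraries. Of the 31 mitotic members, 28 were higher in both 7KC libraries than in both libraries without it, compared to 5 of the 18 G1/S members and 12.3% of the 16408 genes above 0 in any library. Conversely, 9 of the 18 G1/S members were higher in both WD libraries than in both CD libraries, compared to 2 of the 31 mitotic members and 24.0% of those 16408 genes. With the values rescaled to equal sums, the count for the 7KC libraries was again 28 of 31 and was 6 of 18, and that for the WD libraries was again 2 of 31 and was 8 of 18.

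A dividing cell passes from G1 into S phase when cyclin D and cyclin E with their kinases release the E2F transcription factors, which switch on the genes for loading the replicative helicase and for making deoxynucleotides. The mitotic genes are switched on later, in G2 and mitosis, and encode the cyclin B kinase, the spindle, the kinetochore and the machinery that separates the daughter cells. Most hepatocytes of an adult liver rest outside the cycle, and polyploid hepatocytes can arise when cells replicate their DNA without completing division. Kupffer cells, endothelial cells and infiltrating leukocytes of the liver can divide too.

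Male ob/ob mice, which lack leptin and become obese, were fed 1 of 4 diets from 6 weeks of age for 4 weeks. CD was a regular chow and WD a western-type diet rich in fat and sugar, and both held 1% cholesterol, so that no group was without added cholesterol. CD+7KC and WD+7KC were the same diets with 0.01% 7KC, an oxidation product of cholesterol. Whole liver RNA was sequenced in 1 library per group, and the number of mice behind a library was not given in the sources used here. There was therefore no replicate check of any difference, no p-value was computed, and "higher" and "lower" below compare 2 libraries.

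Levels are given in FPKM (fragments per kilobase of transcript, scaled to the number of mapped fragments). Log2 fold changes were computed from FPKM + 0.1, which understates the difference of low genes, and a member was counted as called above 1 or below -1. The steps between the low values gave an estimate of 9430000 to 12130000 fragments per library, and the libraries summed to 602059 FPKM on WD+7KC and to 696062 to 715605 FPKM in the other libraries. Rescaling to equal sums moved the median over all genes from 0.00 to 0.21 in WD+7KC relative to WD and from 0.00 to 0.20 in WD+7KC relative to CD+7KC, so the counts and medians of those comparisons are also given on that scale, as are the members whose direction, call or interval it changed. Alb, the hepatocyte gene for albumin, was the highest gene in every library. None of the 49 members was at 0 in any library. Of these, 39 members reached 1 FPKM in at least 1 library and 22 did so in all 4, while 26 were under 1 FPKM on CD, 14 on CD+7KC, 19 on WD and 10 on WD+7KC. For the 31 members with 1 RefSeq mRNA, exact 95% counting intervals of the FPKM ratio are given in brackets on the log2 scale, without pseudocount and on the deposited scaling, and cover counting error only.

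**Figure D1:**
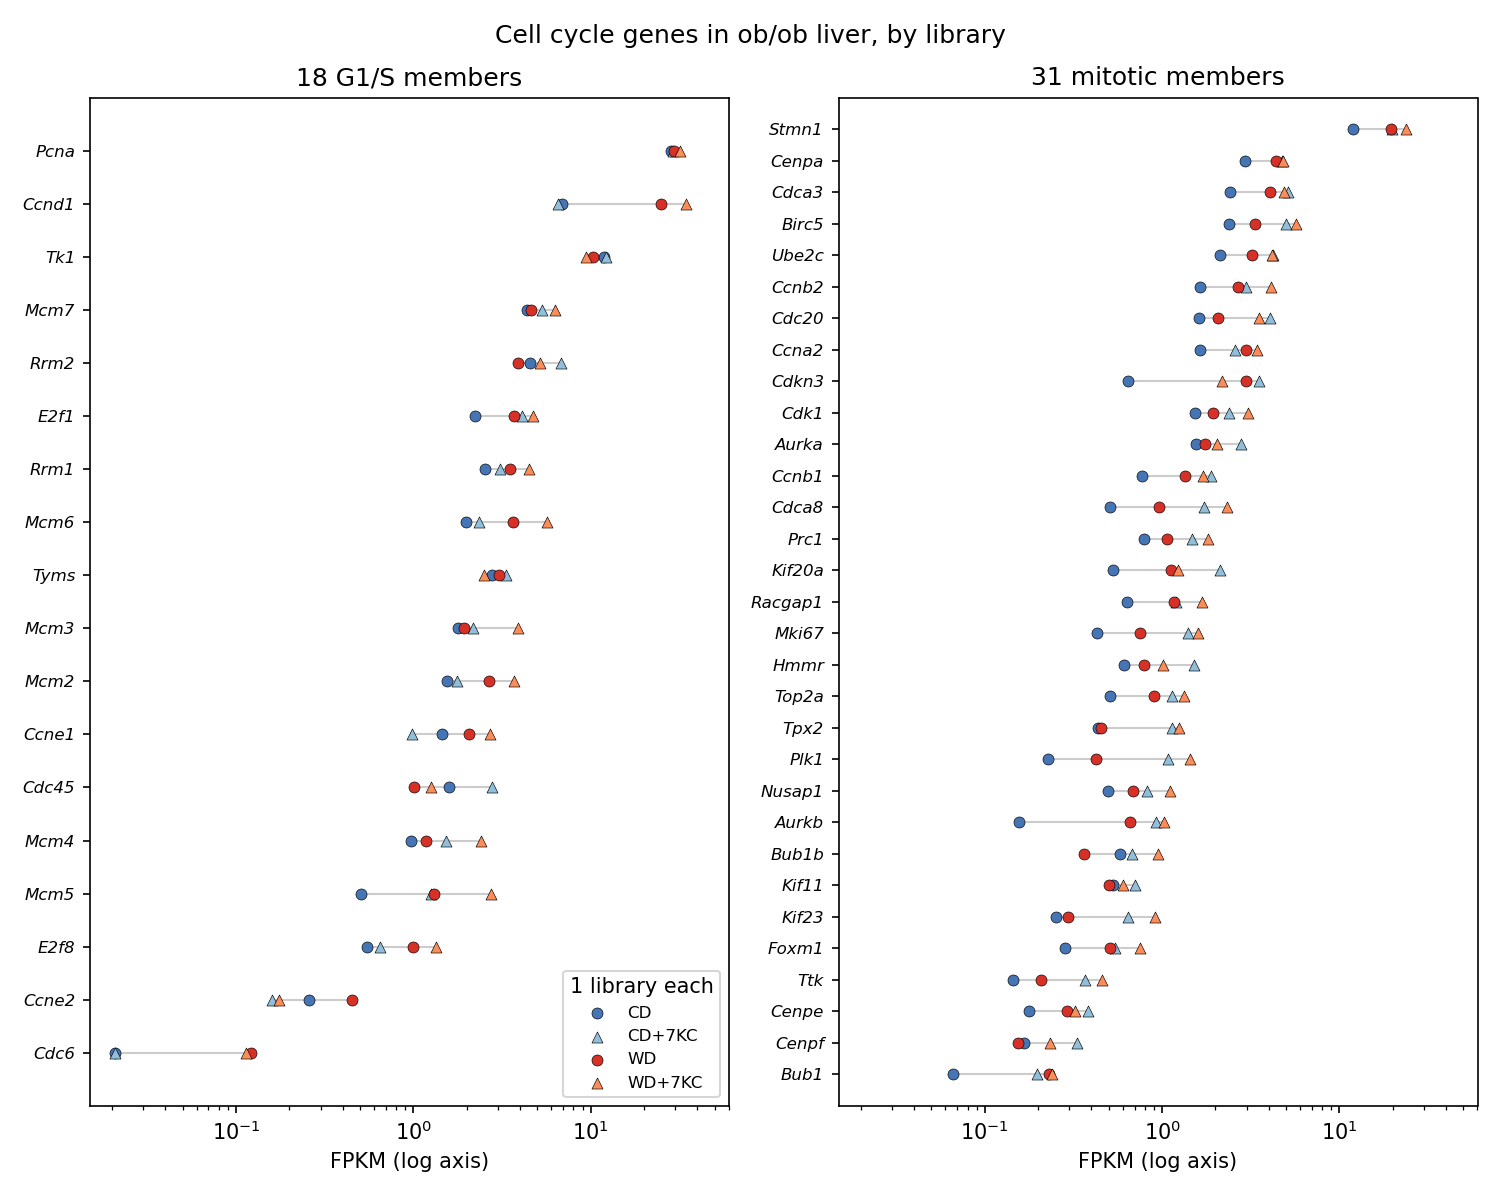
Level of each member in FPKM (x axis, log scale), with 1 point per library (circles without 7KC, triangles with 7KC, blue CD, red WD) and a grey line from the lowest to the highest. CD was the lowest library for 28 of the 31 mitotic members and for 10 of the 18 G1/S members.

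With 7KC added to CD, all 31 mitotic members were higher and 14 of them were above 1, with a median log2 fold change of 0.94. Of the 18 G1/S members, 14 were higher and 1 was above 1, with a median of 0.24. Among all genes tested in CD+7KC relative to CD, 3.84% were above 1 and 49.3% were higher, with a median of 0.00. No member was below -1, compared to 2.91% of all genes. Of the members with a counting interval, the interval lay above 0 for 18 of 21 mitotic members and for 2 of 10 G1/S members, and below 0 for none of either group.

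With 7KC added to WD, 30 of the 31 mitotic members were higher and 5 were above 1, with a median of 0.50. Of the 18 G1/S members, 14 were higher and 1 was above 1, with a median of 0.39. Among all genes tested in WD+7KC relative to WD, 6.21% were above 1, 2.79% were below -1 and 50.2% were higher. With equal sums, the medians were 0.71 for the mitotic members, 0.60 for the G1/S members and 0.21 for all genes, of which 73.0% were higher. On that scale 16 instead of 14 G1/S members were higher, 7 mitotic and 3 G1/S members were above 1, and the split of all genes called was 1374 above 1 and 348 below -1 instead of 978 and 440. The interval lay above 0 for 8 of 21 mitotic members (12 with equal sums) and for 6 of 10 G1/S members (8 with equal sums). With a pseudocount of 1 instead of 0.1, the medians were 0.29 for both groups.

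With equal sums, Mcm3 at 1.2, Mcm4 at 1.17, Mki67 at 1.2 and Ttk at 1.02 were also above 1 in WD+7KC relative to WD. Cdc6 and Tk1 turned from lower to higher, at 0.06 and 0.10. The intervals of Pcna [0.13, 0.53], Rrm2 [0.21, 1.08], Top2a [0.22, 1.34], Ccna2, Ccnb2 [0.19, 1.45] and Cdca3 [0.03, 0.94] included 0 on the deposited scaling and lay above 0 with equal sums.

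The addition of 7KC went with a larger log2 difference under CD than under WD in 27 of the 31 mitotic members (23 with equal sums). The median over these members of the difference under WD minus that under CD was -0.41. For the G1/S members the difference was larger under WD in 10 of 18 (14 with equal sums), with a median of 0.07. The share of all genes with a larger difference under either diet was not computed. With equal sums, the median over all genes was 0.21 under WD and 0.03 under CD, so that scale by itself moves genes toward a larger difference under WD. In all, 12 G1/S members and 30 mitotic members were higher with 7KC under both diets. Of all genes, 49.3% were higher under CD and 50.2% under WD, and the share higher under both was not computed.

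**Figure D2:**
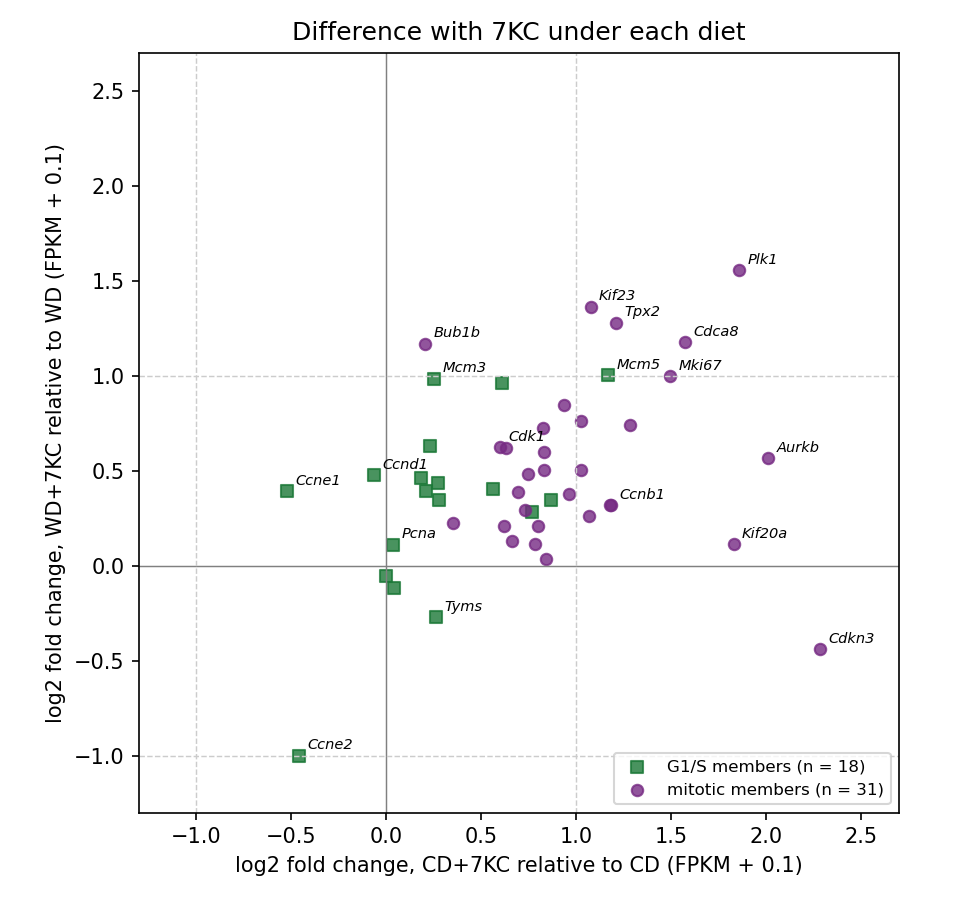
Log2 fold change of each member (FPKM + 0.1) in CD+7KC relative to CD (x axis) and in WD+7KC relative to WD (y axis), with 18 G1/S members as green squares and 31 mitotic members as purple circles. Dashed lines stand at -1 and 1, and the 5 members beyond 1 on both axes are Mcm5, Cdca8, Plk1, Kif23 and Tpx2.

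The 5 members above 1 with 7KC under both diets included Mcm5, a subunit of the replicative helicase, and Cdca8, a subunit of the chromosomal passenger complex. The others were the mitotic kinase Plk1, the midzone kinesin Kif23 and the spindle assembly factor Tpx2. Mcm5 stood at 1.003 under WD, and with a pseudocount of 1 no member was above 1 under WD. The share of all genes above 1 under both diets was not computed. The promoters of Mcm5, Cdca8, Plk1 and Kif23 are shown for the letters of the cell cycle motifs in them, each as 220 bases before and 30 after the RefSeq start, 5′ to 3′ on the gene's strand, in the build GRCm38.p6. Capitals mark a CCAAT box, the cell cycle homology region (CHR, TTTGAA or TTTAAA) and an E2F motif (TTTCGCGC, TTTGGCGC, TTTCCCGC or TTTGCCGC) on either strand.
Mcm5 chr8:75109289-75109538 +: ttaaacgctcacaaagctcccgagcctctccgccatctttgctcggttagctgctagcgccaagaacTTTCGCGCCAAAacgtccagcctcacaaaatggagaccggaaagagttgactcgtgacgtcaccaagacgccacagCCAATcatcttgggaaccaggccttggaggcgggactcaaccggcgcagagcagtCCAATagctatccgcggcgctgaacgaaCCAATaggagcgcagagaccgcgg
Cdca8 chr4:124936888-124937137 -: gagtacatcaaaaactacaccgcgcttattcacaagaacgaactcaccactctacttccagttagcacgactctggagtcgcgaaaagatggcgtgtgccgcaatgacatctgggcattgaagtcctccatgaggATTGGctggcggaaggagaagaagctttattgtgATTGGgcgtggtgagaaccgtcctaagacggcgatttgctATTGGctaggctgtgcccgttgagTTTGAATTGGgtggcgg
Plk1 chr7:122159215-122159464 +: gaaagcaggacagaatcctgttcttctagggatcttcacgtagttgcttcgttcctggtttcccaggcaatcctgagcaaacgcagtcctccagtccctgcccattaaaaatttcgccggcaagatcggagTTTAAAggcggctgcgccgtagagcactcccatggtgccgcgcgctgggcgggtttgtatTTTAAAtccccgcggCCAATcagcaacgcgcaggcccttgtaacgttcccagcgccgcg
Kif23 chr9:61946770-61947019 -: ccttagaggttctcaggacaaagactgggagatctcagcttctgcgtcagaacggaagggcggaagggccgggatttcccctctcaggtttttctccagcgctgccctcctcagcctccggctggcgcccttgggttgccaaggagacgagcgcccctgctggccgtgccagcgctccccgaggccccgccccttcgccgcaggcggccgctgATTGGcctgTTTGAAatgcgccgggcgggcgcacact

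Positions give the first letter of a motif on the gene's strand, counted from 1 at the start and from -1 before it, and TTTAAA reads the same on both strands. Plk1 held TTTAAA at -89 and -29 and CCAAT at -14. Kif23 held CCAAT on the other strand at -7 and TTTGAA at 3. Cdca8 held CCAAT on the other strand at 4 places, the last of which overlapped TTTGAA. Mcm5, the G1/S gene among them, held CCAAT at 3 places and an E2F motif on both strands in overlapping letters at -153 and -149. The longer window searched next also held a CHR in Mcm5, which began just before the bases shown. The same letters were searched in RefSeq promoters of 300 bases (250 before and 50 after the start) for 15 of the 18 G1/S members, 25 of the 31 mitotic members and 27025 genes in all. The windows covered every member other than Ccnd1, Ccne2, Mcm4, Ccna2, Aurkb, Kif20a, Foxm1, Stmn1 and Tpx2. Shares are of genes, and a gene with several promoter windows was counted if any of them held the motif. A CHR was present in 92% of the mitotic members searched, 46.7% of the G1/S members searched and 30.6% of all genes. CCAAT was present in 92%, 66.7% and 41.1%, and both CCAAT and a CHR in 88%, 33.3% and 12.2%, respectively. An E2F motif was present in 4% of the mitotic members, 33.3% of the G1/S members and 2.6% of all genes. Over the 12277 genes above 0 FPKM in at least 1 library, the shares were 23.7% for a CHR, 42.2% for CCAAT, 9.54% for both and 4.11% for an E2F motif. A match describes letters in the window and is neither a binding site nor a cause.

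Among the G1 regulators, Ccnd1, which encodes cyclin D1, separated the diets. It lies at chr7:144929931-144939925 (GRCm38, GENCODE vM21) and overlaps LTO1 on the opposite strand. Ccnd1 measured 6.87 FPKM on CD, 6.57 on CD+7KC, 24.8 on WD and 34.6 on WD+7KC. Both WD libraries were thus above both CD libraries, and the library with 7KC was the higher one under WD. Its log2 fold change was 1.84 in WD relative to CD [1.65, 2.06], 2.38 in WD+7KC relative to CD+7KC [2.2, 2.59], 0.48 in WD+7KC relative to WD [0.35, 0.60] and -0.06 in CD+7KC relative to CD [-0.32, 0.19]. Ccne1, encoding cyclin E1, measured 1.45 FPKM on CD, 0.981 on CD+7KC, 2.05 on WD and 2.72 on WD+7KC. Ccne1 was also higher in both WD libraries, but its intervals included 0 in all comparisons other than WD+7KC relative to CD+7KC, in which the log2 fold change was 1.38 [0.73, 2.33].

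Ccne2, which encodes cyclin E2, measured 0.257 FPKM on CD, 0.16 on CD+7KC, 0.449 on WD and 0.174 on WD+7KC, from an estimated 5 to 11.9 reads. Both 7KC libraries were below both others, and its difference with 7KC under WD, at -0.9996 on the log2 scale, stood just inside the threshold. Ccne2 overlaps Ints8 on the opposite strand in the annotation, and whether the counting used strand is not stated. The transcription factor E2f1 measured 2.21 FPKM on CD, 4.12 on CD+7KC, 3.71 on WD and 4.75 on WD+7KC, with both 7KC libraries above both others. E2f8, an E2F factor that represses, measured 0.546, 0.648, 0.998 and 1.34 FPKM in the same order, with both WD libraries above both CD libraries. It overlaps Gm2788 on the opposite strand.

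The helicase subunits Mcm2 to Mcm7, which are loaded at origins in G1 and unwind DNA in S phase, summed to 11.1 FPKM on CD, 14.3 on CD+7KC, 15.3 on WD and 24.7 on WD+7KC. Each of the 6 subunits was at its highest in WD+7KC and at its lowest in CD. Mcm2 measured 1.55 FPKM on CD, 1.77 on CD+7KC, 2.66 on WD and 3.70 on WD+7KC. Mcm6 measured 1.98, 2.35, 3.64 and 5.69 FPKM in the same order. Mcm5 measured 0.508, 1.27, 1.31 and 2.73 FPKM. For these subunits both WD libraries exceeded both CD libraries, by little for Mcm5.

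Mcm3 measured 1.79 FPKM on CD, 2.16 on CD+7KC, 1.93 on WD and 3.92 on WD+7KC, Mcm4 measured 0.965, 1.52, 1.18 and 2.40, and Mcm7 measured 4.35, 5.28, 4.62 and 6.29. For these subunits both 7KC libraries exceeded both others. The difference with 7KC under WD was 0.99 for Mcm3 [0.56, 1.53], 0.96 for Mcm4 [0.47, 1.60], 0.46 for Mcm2 [0.06, 0.88] and 0.44 for Mcm7 [0.12, 0.79]. With equal sums, Mcm3 and Mcm4 were above 1, at 1.2 and 1.17. Under CD the interval lay above 0 for Mcm4, at 0.61 [0.03, 1.30], and included 0 for Mcm2, Mcm3 and Mcm7. Mcm5 and Mcm6 have several mRNAs and no interval. Mcm7 overlaps Ap4m1 and Cops6 on the opposite strand.

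Cdc45, which activates the helicase, went the other way between the diets, at 1.59 FPKM on CD, 2.78 on CD+7KC, 1.01 on WD and 1.26 on WD+7KC. It was the single member below -1 in any comparison, at -1.09 in WD+7KC relative to CD+7KC, and -0.89 with equal sums. Cdc45 overlaps Ufd1 on the opposite strand. Cdc6, which loads the helicase, rested on about 1 read in CD and in CD+7KC, and measured 0.122 FPKM on WD and 0.114 on WD+7KC.

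Pcna, Tk1 and Tyms, of the sliding clamp and of nucleotide supply, had the smallest ratio of highest to lowest library among the 49 members. Pcna, the clamp that holds DNA polymerase, was the most abundant member in CD, CD+7KC and WD, at 28.5 FPKM on CD, 29.3 on CD+7KC, 29.3 on WD and 31.7 on WD+7KC. Its highest library was 1.11 times its lowest, compared to 1.29 for Tk1 and 1.33 for Tyms. All of its intervals included 0 on the deposited scaling, but with equal sums those relative to WD and to CD+7KC lay above 0 on WD+7KC. Thymidine kinase, encoded by Tk1, measured 11.9, 12.2, 10.3 and 9.45 FPKM in the same order and overlaps Afmid on the opposite strand. Thymidylate synthase, encoded by Tyms, measured 2.77, 3.34, 3.05 and 2.51 FPKM, and its pseudogene Tyms-ps 0.159 on CD+7KC and 0 in the other libraries. Tk1 and Tyms were the 2 G1/S members with their lowest value in WD+7KC.

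Rrm1 and Rrm2 encode the subunits of ribonucleotide reductase, which makes deoxynucleotides. Rrm1 was with Ccnd1, Ccne1, E2f8, Cdc6, Mcm2, Mcm5, Mcm6 and Pcna among the 9 G1/S members higher in both WD libraries. Pcna was among them by little, at 29.34 FPKM on WD and 29.27 on CD+7KC, and Cdc6 by few reads. With equal sums, the log2 fold change of Pcna relative to CD was 0.078 on CD+7KC and 0.074 on WD. On that scale Pcna moved to the members higher in both 7KC libraries. Rrm1 measured 2.53 FPKM on CD, 3.10 on CD+7KC, 3.53 on WD and 4.52 on WD+7KC. Rrm2 measured 4.55 on CD, 6.78 on CD+7KC, 3.90 on WD and 5.19 on WD+7KC, and was higher in both 7KC libraries. The subunits followed different orders, Rrm1 with 0.53 [0.22, 0.87] and Rrm2 with -0.38 [-0.73, -0.03] in WD+7KC relative to CD+7KC. With equal sums, the log2 fold change of Rrm2 in that comparison was -0.17 and its interval included 0 [-0.52, 0.18].

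Mki67, which encodes the proliferation marker Ki-67 and lies at chr7:135689784-135716361, measured 0.431 FPKM on CD, 1.40 on CD+7KC, 0.747 on WD and 1.59 on WD+7KC, from an estimated 47 to 191 reads. Both 7KC libraries were above both others. Its log2 fold change with 7KC was 1.5 under CD [1.21, 2.19] and 0.999 under WD [0.70, 1.52], the latter just below the threshold and above it, at 1.2, with equal sums. In WD relative to CD it was 0.67 [0.22, 1.34], and in WD+7KC relative to CD+7KC 0.18 [-0.12, 0.51] or, with equal sums, 0.37 [0.09, 0.72]. Top2a, the topoisomerase that untangles chromosomes, had the same order, with 0.506 FPKM on CD, 1.14 on CD+7KC, 0.904 on WD and 1.32 on WD+7KC.

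The cyclin-dependent kinase Cdk1, which drives entry into mitosis, measured 1.54 FPKM on CD, 2.38 on CD+7KC, 1.95 on WD and 3.06 on WD+7KC. Its difference with 7KC was 0.60 under CD [0.20, 1.10] and 0.63 under WD [0.24, 1.06]. Its partner Ccnb1 measured 0.774, 1.88, 1.35 and 1.71 FPKM in the same order, and Ccnb2 measured 1.63, 2.98, 2.69 and 4.12. For all 3 genes both 7KC libraries exceeded both others, while for Ccnb1 and Ccnb2 the interval lay above 0 under CD, at 1.18 [0.54, 2.18] and 0.83 [0.12, 1.65]. With equal sums, that of Ccnb2 lay above 0 under WD too [0.19, 1.45].

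Ccna2, encoding cyclin A2, was 1 of the 2 mitotic members higher in both WD libraries, at 1.64 FPKM on CD, 2.57 on CD+7KC, 2.95 on WD and 3.43 on WD+7KC. It overlaps Exosc9 on the opposite strand. Bub1 was the other, at 0.0658, 0.197, 0.230 and 0.238 FPKM in the same order, from about 2.3 to 9.3 reads. Foxm1, the transcription factor of mitotic genes, measured 0.283 FPKM on CD, 0.543 on CD+7KC, 0.507 on WD and 0.749 on WD+7KC, and all of its intervals included 0. Cdca3, a trigger of mitotic entry, measured 2.41, 5.15, 4.03 and 4.86 FPKM, with 1.07 under CD [0.58, 1.63] and 0.26 under WD [-0.19, 0.73].

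Cdkn3, a phosphatase that acts on cyclin-dependent kinases, was the mitotic member that was lower with 7KC under WD. It was with Ccna2 and Bub1 the exception to the order of the other 28 mitotic members. It measured 0.641 FPKM on CD, 3.52 on CD+7KC, 2.98 on WD and 2.18 on WD+7KC, from 5 to 28 reads. CD stood apart from the other libraries, and the log2 fold change was 2.29 under CD [1.09, 4.21] and -0.44 under WD [-1.42, 0.54].

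The mitotic kinases and chromosomal passengers, which align and separate chromosomes, summed to 4.83 FPKM on CD, 11.5 on CD+7KC, 7.12 on WD and 12.5 on WD+7KC. Of these 5 genes, 4 were above 1 with 7KC under CD and 2 under WD. Plk1 measured 0.227 FPKM on CD, 1.09 on CD+7KC, 0.422 on WD and 1.44 on WD+7KC, and Cdca8 measured 0.511, 1.72, 0.966 and 2.31. The highest Plk1 value was 6.33 times the lowest, from 35 and 5 reads. On the opposite strand, Plk1 overlaps Gm44985 and Cdca8 overlaps 9930104L06Rik. Plk1 was higher by 1.86 under CD [0.84, 4.00] and 1.56 under WD [0.63, 3.09], and Cdca8 by 1.57 [0.57, 3.10] and 1.18 [0.33, 2.29].

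Aurkb measured 0.155 FPKM on CD, from 3 reads, 0.929 on CD+7KC, 0.663 on WD and 1.03 on WD+7KC. Its log2 fold change was 2.01 under CD [0.80, 4.98] and 0.57 under WD [-0.47, 1.83]. Birc5, which encodes survivin, measured 2.39, 4.97, 3.32 and 5.70 FPKM in the same order, and Aurka 1.56, 2.78, 1.75 and 2.04. In all 5 genes both 7KC libraries exceeded both others.

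Among the genes of the spindle checkpoint, the kinetochore and the anaphase-promoting complex, Cdc20, an activator of that complex, measured 1.61 FPKM on CD, 4.07 on CD+7KC, 2.07 on WD and 3.53 on WD+7KC. Its difference was 1.29 under CD [0.69, 2.02] and 0.74 under WD [0.14, 1.43], and it overlaps Elovl1 on the opposite strand. Cenpa, the centromeric histone, measured 2.95, 4.72, 4.40 and 4.82 FPKM in the same order, and Ube2c, the ubiquitin-conjugating enzyme of the complex, 2.13, 4.25, 3.21 and 4.19. In WD+7KC relative to CD+7KC the log2 fold change was 0.03 for Cenpa and -0.02 for Ube2c [-0.71, 0.67]. Ube2c overlaps Tnnc2 on the opposite strand.

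Bub1b, a checkpoint kinase, departed from its group. It measured 0.576 FPKM on CD, 0.678 on CD+7KC, 0.365 on WD and 0.947 on WD+7KC, and its difference was 1.17 under WD [0.41, 2.44] but 0.20 under CD [-0.64, 1.12]. The other members of the role were low, with Ttk between 0.145 and 0.456 FPKM, Cenpe between 0.179 and 0.380 and Cenpf between 0.154 and 0.331. Ttk, Cenpe and Cenpf were each higher in both 7KC libraries than in both others.

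The spindle, midzone and cytokinesis genes summed to 16.2 FPKM on CD, 29.5 on CD+7KC, 25.5 on WD and 33.5 on WD+7KC, much of it from Stmn1, a regulator of microtubules, at 11.9, 19.8, 19.4 and 23.8 FPKM. Without Stmn1 the mitotic members still summed to 26.8 FPKM on CD, 57.7 on CD+7KC, 42.3 on WD and 59.9 on WD+7KC. Tpx2 measured 0.435 FPKM on CD, 1.14 on CD+7KC, 0.453 on WD and 1.24 on WD+7KC, and Kif23 measured 0.253, 0.645, 0.295 and 0.917. In both genes the libraries without 7KC lay close together and those with it lay well above them. Kif23 was higher by 1.08 under CD [0.18, 2.64] and 1.36 under WD [0.56, 2.88].

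Kif20a, another midzone kinesin, measured 0.527 FPKM on CD, 2.13 on CD+7KC, 1.13 on WD and 1.23 on WD+7KC. Its log2 fold change was thus 1.83 under CD and 0.11 under WD, and it overlaps Cdc23 on the opposite strand. Hmmr, a spindle protein, had a like order with 0.611, 1.51, 0.796 and 1.02 FPKM. Prc1, the midzone bundler, measured 0.793, 1.48, 1.06 and 1.82 FPKM and overlaps Rccd1, Racgap1, a regulator of cytokinesis, measured 0.632, 1.2, 1.16 and 1.68, and Nusap1, a spindle protein that overlaps Oip5, measured 0.494, 0.821, 0.689 and 1.11. The kinesin Kif11 measured 0.530, 0.705, 0.503 and 0.604 FPKM, and all of its intervals included 0.

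**Figure D3:**
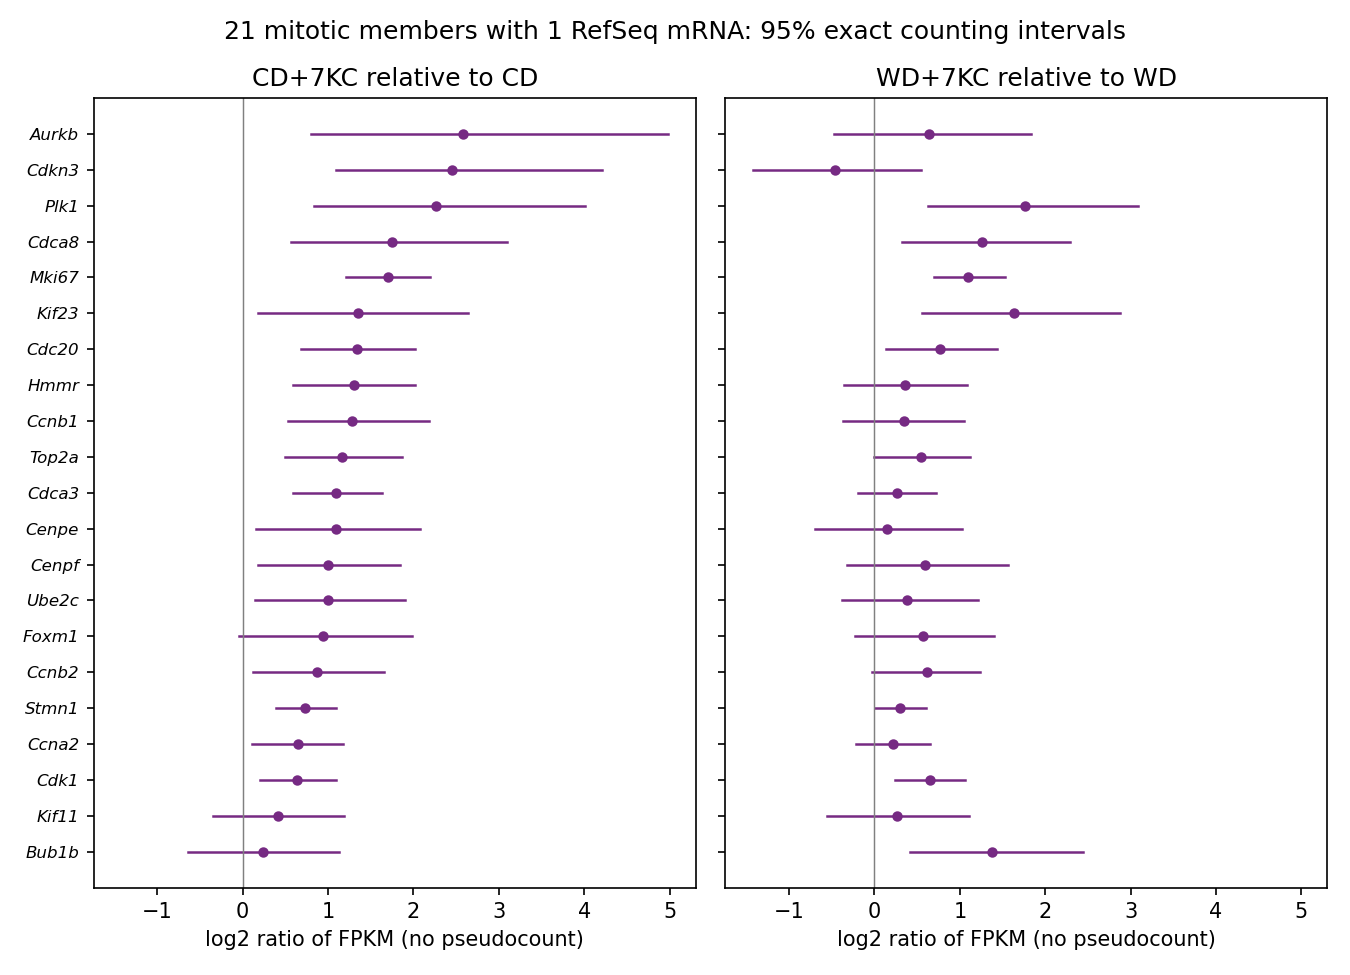
Log2 ratio of FPKM with 7KC (x axis, no pseudocount) for the 21 mitotic members with 1 RefSeq mRNA, with points for the ratio and bars for the exact 95% counting interval, under CD (left) and WD (right). The bar lies above 0 for 18 members under CD and 8 under WD.

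The diets were compared with and without 7KC, and these comparisons share libraries with those above. In WD relative to CD, 28 of 31 mitotic members and 15 of 18 G1/S members were higher, with medians of 0.57 and 0.47, and 2 of each were above 1, while 5.31% of all genes were above 1 and 50.9% were higher. The 4 members were Cdkn3 at 2.06 [0.76, 3.99], Ccnd1, Aurkb at 1.58 [0.17, 4.57] and Mcm5 at 1.22. Those at the other end were Cdc45 at -0.60, Bub1b at -0.54 [-1.80, 0.42], Rrm2 at -0.22 [-0.68, 0.23] and Tk1 at -0.21. No member was below -1, compared to 4.38% of all genes.

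Between the 7KC libraries, WD+7KC relative to CD+7KC, the groups of genes parted. Of the G1/S members, 14 of 18 were higher and 5 were above 1, with a median of 0.58, while 20 of 31 mitotic members were higher and none was above 1, with a median of 0.19. Among all genes, 8.01% were above 1, 4.61% below -1 and 50.2% were higher. The interval lay above 0 for 6 of 10 G1/S members and below 0 for 1, and included 0 for all 21 mitotic members. With equal sums, it lay above 0 for 8 of the 10 G1/S members and 5 of the 21 mitotic members, and below 0 for none. On that scale, 24 of 31 mitotic members were higher with a median of 0.37, 14 of 18 G1/S members were higher with a median of 0.78, and members above 1 and below -1 were 7 and 0 instead of 5 and 1. Of all genes, 68.4% were higher on that scale, with a median of 0.20. All genes called were 1755 above 1 and 584 below -1 there instead of 1274 and 733. The G1/S members above 1 were Ccnd1, Ccne1, Mcm6 at 1.24, Mcm5 at 1.05 and Mcm2 at 1.02 [0.62, 1.51]. With equal sums, E2f8 at 1.14 and Mcm3 at 1.03 were above 1 too. The mitotic members whose interval then lay above 0 were Mki67, Ccna2 [0.20, 1.06], Ccnb2 [0.08, 1.24], Cdk1 [0.20, 0.93] and Stmn1 [0.20, 0.76]. The intervals of Mcm7 [0.16, 0.77] and Pcna [0.14, 0.51] then lay above 0 as well, and Ccnb1, Cdc20, Cdca3 and Ube2c turned from lower to higher. On the deposited values, the mitotic members at the lower end were Kif20a at -0.75, Cdkn3 at -0.67 [-1.62, 0.19] and Hmmr at -0.53 [-1.13, 0.03].

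Summed over members, the G1/S genes measured 74.3 FPKM on CD, 84.3 on CD+7KC, 98.6 on WD and 123 on WD+7KC, and the mitotic genes 38.7, 77.5, 61.7 and 83.8. The mitotic genes made up 34.2% of the members' summed FPKM on CD, 47.9% on CD+7KC, 38.5% on WD and 40.5% on WD+7KC. Pcna, Ccnd1 and Tk1 dominated the G1/S sum, and without them it was 27.1 FPKM on CD, 36.3 on CD+7KC, 34.2 on WD and 47.3 on WD+7KC, so that both 7KC libraries then stood above both others.

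**Figure D4:**
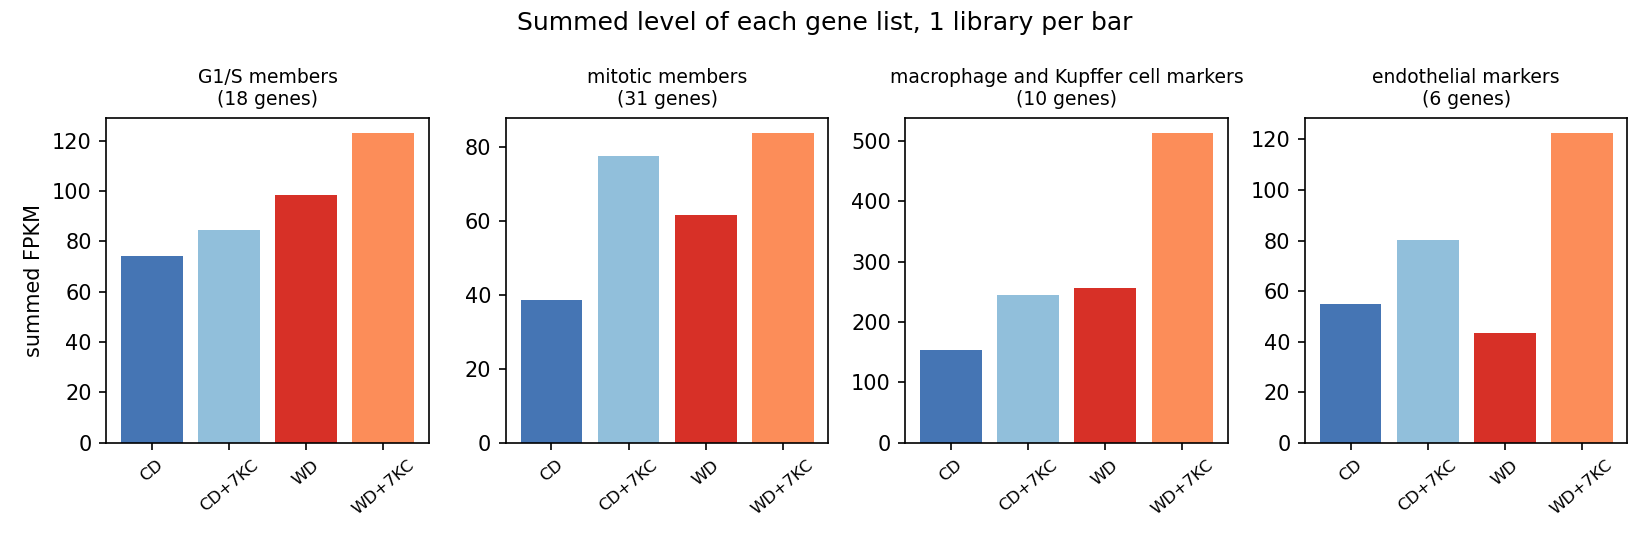
Summed FPKM (y axis from 0, scale differs between panels) of the G1/S members, the mitotic members, macrophage and Kupffer cell markers and endothelial markers, with 1 bar per library. The mitotic members are highest in both 7KC libraries, as are the endothelial markers, while the G1/S members and the macrophage markers are ordered CD, CD+7KC, WD and WD+7KC.

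Hepatocyte markers summed to 52092 FPKM on CD, 44210 on CD+7KC, 53828 on WD and 42736 on WD+7KC, so that both 7KC libraries were below both others, the reverse of the mitotic sum. Most of that sum came from Alb, at 35084, 31205, 35981 and 30014 FPKM. Apob, Cps1 and Tat did not have both 7KC libraries below both others. Of these 8 markers, 7 were lower with 7KC under each diet, but with equal sums 3 were lower under WD and 7 under CD. The summed macrophage markers were ordered over the libraries like the G1/S sum, but the single markers were split. Cd68, Csf1r, Marco, Cd5l and Lyz2 were higher in both WD libraries than in both CD libraries. Adgre1, Clec4f, Cd163, Vsig4 and Timd4 were, like most mitotic members, higher in both 7KC libraries than in both others. The summed endothelial markers were, like the mitotic sum, higher in both 7KC libraries but lower on WD than on CD. All 10 macrophage and Kupffer cell markers were higher with 7KC under each diet, with medians of 0.90 under CD and 1.01 under WD (1.23 with equal sums). They summed to 153 FPKM on CD, 244 on CD+7KC, 256 on WD and 513 on WD+7KC. The 6 endothelial markers summed to 55.0, 80.2, 43.5 and 123 FPKM in the same order. No macrophage or endothelial marker was at 0 in any library. All 6 endothelial markers were above 1 with 7KC under WD, compared to 6.21% of all genes, with a median of 1.52 (1.73 with equal sums). Under CD 5 of 6 were higher, with a median of 0.39, and Lyve1 was lower, at -0.46 [-0.73, -0.20]. T and NK cell markers summed to 1.17 FPKM on CD, 2.2 on CD+7KC, 6.57 on WD and 5.02 on WD+7KC. Like the G1/S sum they were higher in both WD libraries, but WD was the highest. Nkg7 made up much of the sums on WD and WD+7KC, at 2.96 and 2.44 FPKM. Cd2 was lower in both WD libraries than in both CD libraries, and Cd4 was lower on WD than on CD. B cell markers summed to 1.37 FPKM on CD, 3.34 on CD+7KC, 2.32 on WD and 2.44 on WD+7KC. Like the mitotic sum their sum was higher in both 7KC libraries, by little under WD, but CD+7KC was the highest. The single markers were low, at 1.45 FPKM or less, and were split. Of 5 markers, 4 were higher with 7KC under CD and 3 under WD, while Ms4a1 was lower under both diets and Cd79a under WD. The part of any of these cells in the members' differences was not tested, and in whole liver more dividing cells and more RNA per dividing cell cannot be told apart.

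The remaining marker lists followed other orders. Neutrophil and granulocyte precursor markers summed to 20.6 FPKM on CD, 17.3 on CD+7KC, 13.7 on WD and 18.95 on WD+7KC, with the precursor gene Mpo at 0 in all libraries. Erythroid precursor markers summed to 92.9, 88.4, 37.8 and 31.7 FPKM, with Hemgn and Rhag at 0 in all libraries. Most of each sum came from Alas2, at 86.5, 81.3, 30.9 and 23.3 FPKM. Stellate cell markers summed to 159, 132, 169 and 161 FPKM, mostly from Dcn at 139, 118, 145 and 137. Cholangiocyte markers summed to 102, 46.4, 126 and 186 FPKM, nearly all from Spp1 at 98.7, 43.7, 124 and 183. The order of that sum was thus the order of Spp1. Krt19, Krt7 and Sox9 were highest on CD, and Epcam was highest on WD+7KC.

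Further genes of the pathway were taken as lists. Of 56 other mitosis genes, 47 were higher with 7KC under CD and 18 were above 1, with a median of 0.69. Under WD 42 were higher and 7 were above 1, with a median of 0.43, and with equal sums 52 were higher, 11 were above 1 and the median was 0.59. Among all genes, 3.84% were above 1 under CD and 6.21% under WD. Ckap2l, a spindle gene, had the largest difference under CD among those of at least 1 FPKM, at 0.186 FPKM on CD, 1.11 on CD+7KC, 0.432 on WD and 0.727 on WD+7KC. Kif22, a chromosome-bound kinesin, had the largest under WD, at 0.342, 0.681, 0.454 and 1.59 FPKM. At the other end stood Cenpw under WD, at -0.97 [-2.08, -0.05], and Cks2 under CD, at -0.30 [-0.64, 0.03].

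Of 45 other DNA replication genes, 35 were higher with 7KC under CD and 2 were above 1, with a median of 0.18. Under WD 30 were higher and 3 were above 1, with a median of 0.20, and with equal sums 39 were higher with a median of 0.34. The calls above 1 were thus about as frequent as among all genes, of which 3.84% were above 1 under CD and 6.21% under WD. Of all genes, 49.3% were higher under CD and 50.2% under WD, and 73.0% under WD with equal sums. Among those of at least 1 FPKM, the extremes under WD were Uhrf1, which maintains DNA methylation at replication forks, at 1.15, and the chromatin assembly gene Chaf1b at -0.81 [-1.90, 0.10]. Under CD they were the clamp loader gene Rfc4 at 0.87 [0.19, 1.71] and Tipin, a fork protection gene, at -0.28. Uhrf1 measured 0.113 FPKM on CD, 0.170 on CD+7KC, 0.426 on WD and 1.07 on WD+7KC, with both WD libraries above both CD libraries. In WD+7KC relative to CD+7KC, 23 of the 56 mitosis genes and 23 of the 45 replication genes were higher, beside 50.2% of all genes, and with equal sums 37 and 33, beside 68.4% of all genes.

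Regulators upstream of replication and mitosis were described in 3 lists. Of 14 G1 kinases, D cyclins and E2F factors, 9 were higher with 7KC under CD and 12 under WD (14 with equal sums), with medians of 0.14 and 0.16 (0.37 with equal sums), and on the deposited values none was above 1 or below -1 in any comparison. The extremes at 1 FPKM or more were E2f4 at -0.42 [-0.73, -0.11] and Tfdp2 at 0.29 under CD, and Tfdp2 at -0.08 (0.13 with equal sums) and E2f6 at 0.44 [0.05, 0.83] under WD. Of 13 inhibitors of the cycle, 8 were higher under CD and 6 under WD, with medians of 0.17 and -0.01. With equal sums, 11 were higher under WD and the median was 0.20, while 73.0% of all genes were higher with a median of 0.21. Btg2, an antiproliferative gene, measured 18.7 FPKM on CD, 11.4 on CD+7KC, 8.46 on WD and 10.2 on WD+7KC, with CD above the other libraries. Cdkn1c, encoding the inhibitor p57, was the highest of the inhibitors at 1 FPKM or more under CD at 0.67, and Rbl2, encoding the pocket protein p130, the lowest under WD at -0.27.

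Among 12 growth signals of hepatocytes, 10 were lower with 7KC under CD, with a median of -0.44, and 10 were higher under WD (11 with equal sums), with a median of 0.25 (0.46 with equal sums). Egfr, the receptor for epidermal growth factor, measured 19.5 FPKM on CD, 5.76 on CD+7KC, 11 on WD and 9.29 on WD+7KC, with a log2 fold change of -1.74 under CD and -0.24 under WD. Tgfa, encoding a ligand of that receptor, measured 4.39, 5.55, 7.20 and 8.49 FPKM in the same order. Myc, encoding a growth-promoting transcription factor, measured 3.97, 3.26, 2.94 and 6.09 FPKM and was above 1 under WD, at 1.03.

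**Figure D5:**
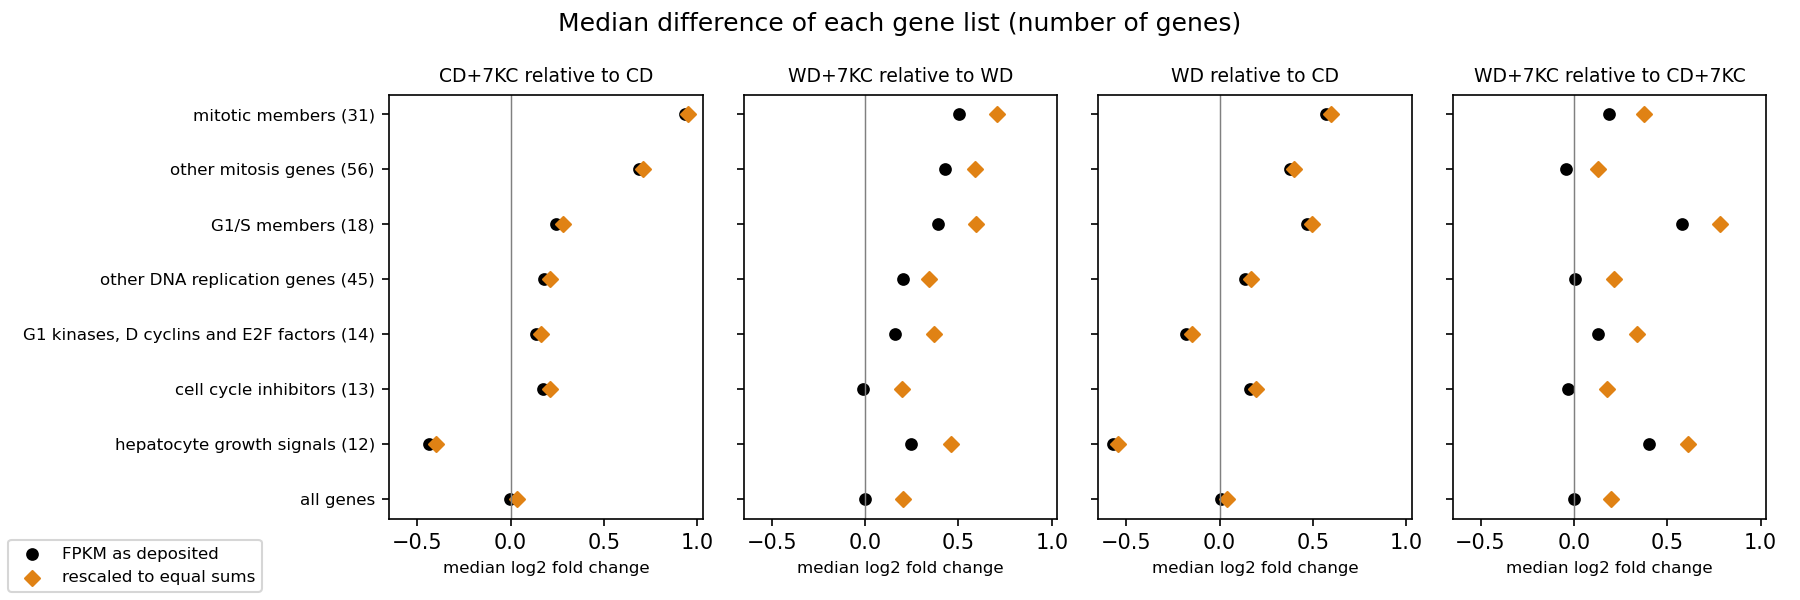
Median log2 fold change (x axis) of the 7 cell cycle and growth lists and of all genes (number of genes in brackets) in the 4 comparisons, from FPKM as deposited (black circles) and rescaled to equal sums (orange diamonds). Among the lists plotted, the mitotic members and the other mitosis genes have the highest medians with 7KC under CD, and the G1/S members have the highest median in WD+7KC relative to CD+7KC on the deposited values.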

How the data were processed

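The authors prepared stranded mRNA libraries from liver, sequenced them as single-end reads of 75 bases and mapped them to mm10 with TopHat 2.0.13, Bowtie2 2.2.3 and SAMtools 0.1.19. The deposited values are FPKM per gene symbol and library, computed by the authors with Cufflinks 2.2.1. The annotation and the Cufflinks options are not given in the sources used here. Each of the 4 groups had 1 library, so no test was run and values were compared as log2 ratios of FPKM + 0.1 for each gene with a value above 0 in either library. All 49 members were accounted for, and those of at least 1 FPKM in a library, those with the 4 largest and smallest changes per comparison among members of at least 0.3 FPKM, and the extremes of each further list among genes of at least 1 FPKM were named. Members and lists were chosen with earlier results of these data known, and the roles and the filter on 10 reads after the values were seen. Depth was estimated from low values of 9769 genes with 1 RefSeq mRNA in GENCODE vM21 (GRCm38), taking 200 bases off each length. Between 72.2% and 74.7% of those values lay within 0.1 of a whole read. Intervals are exact (Clopper-Pearson, 95%), treat the rounded reads as counts and cover counting error only. Promoters came from RefSeq (GRCm38.p6). Alternatives were other pseudocounts, thresholds, filters and scalings. The code was tested on simulated data. Computations used scipy 1.17.1, pandas 2.3.3 and numpy 2.4.6 in Python 3.11.15.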

Additional observations from a re-analysis of the deposited data

Results flagged for a closer look

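For 5 members the library with 7KC was higher under one diet and lower under the other, and for 3 of them both log2 fold changes were at least 0.1 in size and kept their signs under the other scalings. Each direction rests on 1 library per group, and the difference between the diets was not tested. Cdkn3 had a log2 fold change of 2.29 under CD and of -0.44 under WD, from 5 to 28 estimated reads per library. Ccne1 had a log2 fold change of -0.52 under CD and 0.39 under WD, and the counting intervals of both included 0. Tyms had a log2 fold change of 0.26 under CD and -0.27 under WD, and both intervals included 0. The other two were Ccnd1, at -0.06 under CD and 0.48 under WD, and Tk1, at 0.04 and -0.12.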

How the results depend on the processing

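No paired analysis was possible because each group had 1 library and the labels number no replicates, and no library could be left out. Of 104 values recomputed under alternatives, 87 stayed within 1.5 times the reported count or, for medians, within 1.5 times as a fold, and 17 counts moved. That range is wider than most of the reported medians, so a median that fell to 0 could also have stayed within it. All 48 medians kept their sign, but their size depended on the pseudocount. With a pseudocount of 1, the mitotic and G1/S medians were 0.29 and 0.29 in WD+7KC relative to WD, 0.56 and 0.17 in CD+7KC relative to CD, 0.24 and 0.18 in WD relative to CD, and 0.09 and 0.32 between the 7KC libraries. With a filter at 1 FPKM, the G1/S median in WD relative to CD was 0.27 instead of 0.47. In WD+7KC relative to WD, the 6 members above 1 became 0 with a pseudocount of 1, 10 with a pseudocount of 0.01, 10 with equal sums and 16 with a threshold of 0.6, and the 0 members below -1 became 1 with a pseudocount of 0.01 and 1 with that threshold. In CD+7KC relative to CD, the 15 above 1 became 2 with a pseudocount of 1 and 33 with a threshold of 0.6. In WD relative to CD, the 4 above 1 became 2 with a pseudocount of 1, 7 with 0.01 and 23 with a threshold of 0.6, and the 0 below became 1 with that threshold. In WD+7KC relative to CD+7KC, the 5 above 1 became 1 with a pseudocount of 1 and 9 with a threshold of 0.6, and the 1 below became 0 with a pseudocount of 1, 0 with equal sums and 3 with that threshold. A pseudocount of 1 shrinks the changes of genes near 1 FPKM by its construction. Depth limits the members with few reads: 9 had under 10 estimated reads in at least 1 library.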
